A study of Homo sapiens with 3 samples.

Results

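The BCL2 family comprises the proteins that set whether the outer membrane of the mitochondrion opens in apoptosis. Its 10 members described here were named with earlier results of these data known, and each of the 10 is among the 17595 genes of the count table, so that they are listed and expressed is not a finding. Of 16 other family genes 4 were not listed. They fall into 3 classes: the effectors BAX and BAK1, the BH3-only genes BID, BAD, BBC3, BCL2L11, PMAIP1 and BNIP3, and the anti-apoptotic genes MCL1 and BCL2L1. RNA 5′ ends were counted in 3 libraries of 1 group, HEK293 cells grown with no treatment named, in DMEM with glutamine and fetal calf serum. For each library 1000 cells were lysed together with spiked control RNA, and cDNA worth 100 cells entered a PCR of 18 cycles. HEK293 is an established line from human embryonic kidney that carries the E1A and E1B genes of adenovirus, so all libraries share these. Separate cultures are not mentioned in the labels, so the spread between libraries may be technical. Each library pools its cells, so a few cells at a high level and many at a low level cannot be told apart.

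When activated, BAX and BAK1 form pores in the outer mitochondrial membrane through which cytochrome c escapes. Anti-apoptotic members hold them in check by binding them, and BH3-only proteins either activate the effectors or occupy the groove of the anti-apoptotic members. The E1B 19K protein of adenovirus resembles BCL2 in function and binds BAX and BAK. The values below are of human transcripts and spikes, and transcripts of the adenoviral genes were not analysed here. All are RNA levels, while BCL2 family proteins are known to be regulated by protein turnover and modification as well.

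The counts arise at RNA 5′ ends, so the sequence just upstream of the annotated start of 4 members is shown first. PMAIP1 had the highest and BBC3 the lowest level of the 10 genes, and BAX and BNIP3 are shown because their windows hold the E-box CACGTG, a palindrome that reads the same on both strands. Each window is the 250 bases before the start, 5′ to 3′ on the strand of the gene, from RefSeq on GRCh38.p14. The authors' counts were made on hg19, so these positions serve to locate the sequences only. Capitals mark CACGTG.
PMAIP1 (chr18:59899746-59899995, + strand): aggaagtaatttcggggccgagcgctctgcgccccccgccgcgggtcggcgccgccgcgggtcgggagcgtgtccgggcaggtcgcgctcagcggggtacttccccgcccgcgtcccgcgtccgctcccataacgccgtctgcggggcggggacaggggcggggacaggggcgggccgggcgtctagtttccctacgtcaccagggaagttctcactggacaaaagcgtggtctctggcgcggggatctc
BBC3 (chr19:47232668-47232917, - strand): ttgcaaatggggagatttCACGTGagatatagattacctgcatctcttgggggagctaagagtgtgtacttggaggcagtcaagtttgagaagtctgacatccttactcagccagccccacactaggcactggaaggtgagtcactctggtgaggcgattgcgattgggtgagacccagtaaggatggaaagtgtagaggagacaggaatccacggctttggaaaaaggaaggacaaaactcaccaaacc
BAX (chr19:48954625-48954874, + strand): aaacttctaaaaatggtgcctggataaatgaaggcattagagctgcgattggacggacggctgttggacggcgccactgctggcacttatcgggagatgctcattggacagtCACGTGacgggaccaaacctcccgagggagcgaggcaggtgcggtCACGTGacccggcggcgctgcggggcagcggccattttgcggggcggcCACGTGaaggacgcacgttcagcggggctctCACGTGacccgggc
BNIP3 (chr10:131981924-131982173, - strand): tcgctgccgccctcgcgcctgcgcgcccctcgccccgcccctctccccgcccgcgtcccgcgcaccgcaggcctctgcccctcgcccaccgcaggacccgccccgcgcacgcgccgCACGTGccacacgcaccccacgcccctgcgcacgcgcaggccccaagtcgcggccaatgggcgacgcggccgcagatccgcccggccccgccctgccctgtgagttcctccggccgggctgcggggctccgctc

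The BAX window held 4 copies of CACGTG, which start at -138, -93, -45 and -14 relative to the annotated start, the base before it being -1. BNIP3 held 1 copy at -134 and BBC3 held 1 copy at -232, while PMAIP1 held none. Of 35114 human promoter windows of the same length 6.35% held the motif, and 5 held 4 or more copies. BAX and BNIP3 were picked for holding the motif, so nothing is read from their copies beside these background values. RefSeq windows were found for 9 of the 10 members, with 15 windows in all because BID, BAD and BCL2L1 have more than 1 annotated start. Of the 5 BID windows, which are not shown, 2 held CACGTG with 1 copy each. These 2 windows overlap, so both may hold the same copy. Searched on both strands, TATAAA matched in 1 of the 15 windows of members, a window of BCL2L1, against 10.7% of all windows. The letters G and C made up 81.6% of the BNIP3 window, 76.8% of that of BCL2L11 and 72.8% of that of PMAIP1, with 41, 34 and 36 CpG dinucleotides. The 5 BID windows ranged from 47.6% to 78.0%, so for BID the share depends on the annotated start taken. The BBC3 window had 49.2% G and C and 4 CpG, and the BAK1 window 58.0% and 5 CpG. The median of all windows was 58.0% with 11 CpG. A match describes these letters and not binding.

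Total counts were 1532672, 1384172 and 1601555 in libraries 20, 21 and 23, called by their column index since the columns carry no replicate number. Spikes took between 3.49% and 3.85% of them. Levels are counts per 1000000 endogenous counts (CPM), and 1 count equals 0.647 to 0.751 CPM. A 5′ tag is counted at the end of an RNA whatever its length, so CPM was not divided by length in the main values; levels per kb of the longest coding transcript in GENCODE 29 are given beside the comparisons between genes. Poisson and binomial 95% intervals below cover counting error only. Genes known to be active in this line were present, with 8 of 8 markers (NEFL, NEFM, STMN1, UCHL1, KRT8, KRT18, VIM and CDH2) at 10 CPM or more. Of 12 markers of blood, endothelium, fibroblasts and liver 3 were listed, with 9 to 13 counts per library for the whole list.

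All 10 members had counts in each of the 3 libraries, and the BH3-only genes held most of them. Of the 10 genes 8 averaged at least 10 CPM, against 44.6% of all listed genes, and 2, PMAIP1 and BID, averaged at least 100 CPM, against 9.91% of all listed genes. Nothing is read from these shares because of how the members were chosen. The median of the 10 was 31.7 ± 1.79 CPM (SD, n = 3 libraries), beside 6.89 ± 0.20 CPM over all 17595 listed genes. Together the members had 770 counts in library 20, 726 in library 21 and 796 in library 23. This was 527 ± 16.02 CPM, or 276 ± 7.53 molecules per cell when the spikes, added at 20000 molecules per cell, were taken as the standard. The conversion assumes that cellular RNAs were captured like the spikes, and by the same standard all endogenous RNA amounted to 523506 ± 26798 molecules per cell (SD, n = 3).

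**Figure D1:**
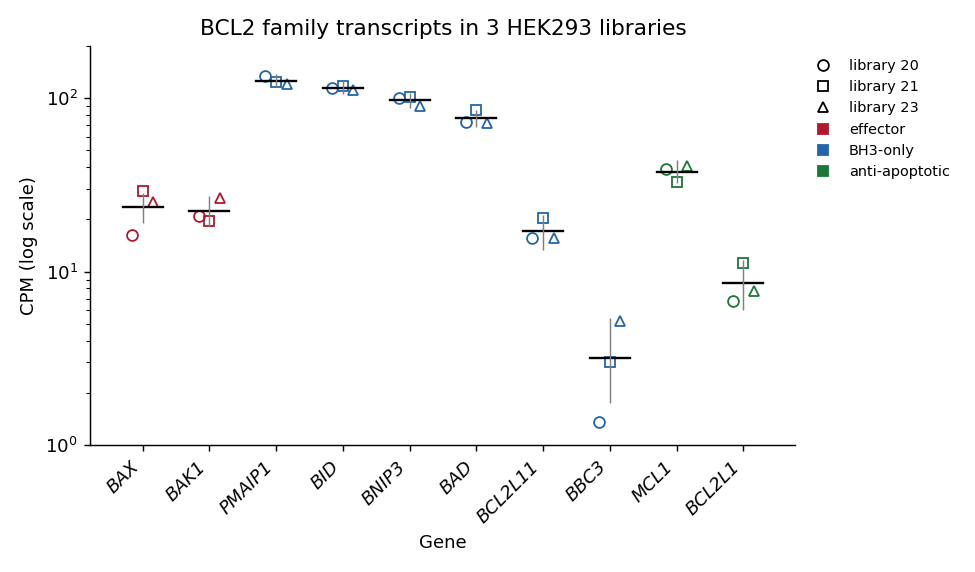
Level of each member in CPM (log axis) in the 3 libraries (symbols), with the mean (bar) and the 95% Poisson interval of the pooled count (grey line), coloured by class. PMAIP1, BID, BNIP3 and BAD lie above all other members in each library, and BBC3 lies lowest at a mean of 3.18 CPM.

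Both effectors were expressed at a similar, moderate level. BAX, which moves from the cytosol to mitochondria on activation, had 24, 39 and 39 counts in libraries 20, 21 and 23, or 16.3, 29.3 and 25.2 CPM. BAK1, which resides on the mitochondrial membrane, had 31, 26 and 41 counts, or 21.01, 19.5 and 26.5 CPM. The values of both genes overlapped, and BAX was the higher one in library 21 only. Their means were 23.6 ± 6.67 CPM for BAX and 22.4 ± 3.69 CPM for BAK1 (SD, n = 3), equal to 12.3 ± 3.40 and 11.8 ± 2.56 molecules per cell. Within a library the log2 ratio of BAX to BAK1 was 0.05 ± 0.48, with an interval of -0.36 to 0.47 from the pooled counts, and it was -0.22 without library 21. Per kb BAX stood higher, at 17.4 ± 4.91 CPM per kb beside 10.1 ± 1.67 CPM per kb for BAK1, because its longest coding transcript has 1358 bases and that of BAK1 2212 bases. BOK, the third effector-like gene, had 1, 0 and 2 counts, and BAX exceeded it with 102 counts beside 3 counts in all libraries together, a pooled ratio with an interval of 11.3-fold to 168-fold.

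Among the BH3-only genes 4 were abundant, BCL2L11 was lower than these and BBC3 was lowest. The mean of BCL2L11 was above that of 65.0% of listed genes, and the mean of BBC3 above that of 39.2%. PMAIP1, which encodes NOXA, a protein that binds chiefly MCL1, had 197, 165 and 186 counts, or 133, 124 and 120.3 CPM in libraries 20, 21 and 23. BID, which links death receptor signalling to mitochondria after cleavage by caspase-8, had 170, 157 and 173 counts, or 115, 118 and 112 CPM. BNIP3, an atypical BH3-only protein and a receptor for the removal of mitochondria, had 148, 135 and 139 counts, or 100.3, 101 and 89.9 CPM. In each library PMAIP1 stood above BID and BID above BNIP3. BAD, which binds BCL2 and BCL2L1 and is controlled by phosphorylation, followed with 107, 114 and 111 counts, or 72.5, 85.7 and 71.8 CPM. These 4 genes reached 65.9 ± 3.70, 60.2 ± 1.499, 50.8 ± 1.18 and 40.02 ± 2.60 molecules per cell (PMAIP1, BID, BNIP3 and BAD; SD, n = 3). BCL2L11, which encodes BIM, an activator of both effectors, was much lower with 23, 27 and 24 counts, or 17.1 ± 2.73 CPM. BBC3, which encodes PUMA and binds all anti-apoptotic members, had 2, 4 and 8 counts, or 1.36, 3.01 and 5.18 CPM, and its mean of 3.18 CPM has an interval of 1.76 to 5.40 CPM.

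The activators BID and BCL2L11 lay apart, and so did PMAIP1 and BBC3. BID exceeded BCL2L11 by a log2 ratio of 2.73 ± 0.19, or 6.65-fold, with an interval of 5.28-fold to 8.75-fold and in 3 of 3 libraries. Per kb the log2 ratio was 3.83, since the longest coding transcript of BCL2L11 has 5231 bases. PMAIP1 exceeded BBC3 by a log2 ratio of 5.32 ± 0.93, with an interval of 23.1-fold to 72.1-fold. The spread of this ratio is wide because BBC3 rests on 2 to 8 counts per library.

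The anti-apoptotic class was carried by MCL1. This short-lived protein, which binds BAK, BIM and NOXA, had 58, 44 and 63 counts, or 39.3, 33.1 and 40.8 CPM. BCL2L1, whose long form is BCL-XL, had 10, 15 and 12 counts, or 6.78, 11.3 and 7.76 CPM. The values of the pair did not overlap. MCL1 took 81.3% ± 5.85 of the counts of the class, and its log2 ratio to BCL2L1 was 2.11 ± 0.52, or 4.33-fold, with an interval of 3.11-fold to 6.55-fold. Per kb the log2 ratio was 1.57. The counts are per gene, so the long and short forms of BCL2L1, of MCL1 and of BCL2L11 cannot be told apart.

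Summed by class, BH3-only transcripts outweighed both other classes in every library. The effectors had 55, 65 and 80 counts in libraries 20, 21 and 23, the BH3-only genes 647, 602 and 641, and the anti-apoptotic genes 68, 59 and 75. In CPM the sums were 45.96 ± 7.66, 435 ± 19.0 and 46.3 ± 2.11 for effectors, BH3-only and anti-apoptotic genes, and the shares of all member counts were 8.72% ± 1.47, 82.5% ± 1.79 and 8.79% ± 0.65 (SD, n = 3). The effectors lay below the BH3-only genes by a log2 ratio of -3.25 ± 0.28, with an interval of -3.46 to -3.03. The BH3-only genes exceeded the anti-apoptotic genes by a log2 ratio of 3.22 ± 0.13, or 9.33-fold, with an interval of 8.09-fold to 10.9-fold. These are ratios of sums over 6 and 2 genes. By class medians, 22.98 ± 3.83 CPM for effectors, 86.9 ± 6.35 CPM for BH3-only genes and 23.2 ± 1.05 CPM for anti-apoptotic genes, both log2 ratios shrank to -1.93 and 1.91. An exact sign-flip test over 3 libraries cannot give a 2-sided p below 0.25, so no p-value is given for ratios.

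**Figure D2:**
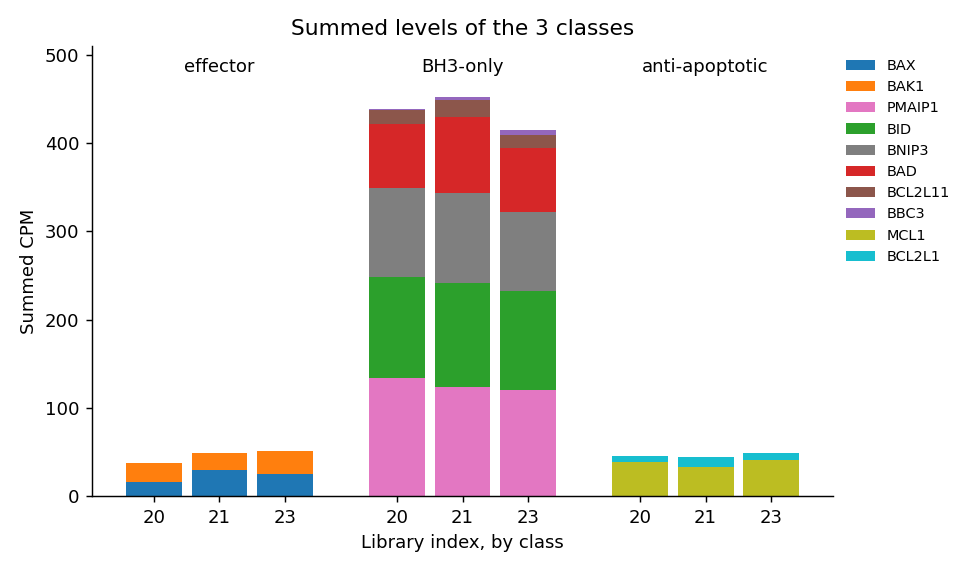
Summed CPM of the 3 classes in libraries 20, 21 and 23, each bar stacked by gene. The BH3-only bars lie between 415 and 452 CPM, and those of both other classes between 37.3 and 51.8 CPM.

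Effector and anti-apoptotic transcripts were close to equal in sum. Their log2 ratio was -0.30, 0.14 and 0.09 in libraries 20, 21 and 23, with a mean of -0.02 ± 0.24 and an interval of -0.30 to 0.27 from 200 pooled counts of effectors and 202 of anti-apoptotic genes. The interval spans 0, and the sign depends on the scale, on the genes summed and on the libraries used. The log2 ratio was 1.07 per kb, and 1.36 when BAX and MCL1, the most counted gene of either class, were left out. Without library 20 it was 0.12. Of the single pairs, BAX lay below MCL1 by a log2 ratio of -0.70 ± 0.54 and BAK1 lay below MCL1 by -0.75 ± 0.14, each in 3 of 3 libraries. Per kb both turned, to 0.82 for BAX over MCL1 and to 0.07 for BAK1 over MCL1. BAK1 exceeded BCL2L1, the pair that remains of the classes without BAX and MCL1, by 1.36 ± 0.52 in 3 of 3 libraries.

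In both pairs compared of a BH3-only gene with an anti-apoptotic partner, PMAIP1 with MCL1 and BAD with BCL2L1, the BH3-only gene had more counts. PMAIP1 exceeded MCL1 by a log2 ratio of 1.73 ± 0.17, or 3.33-fold, with an interval of 2.79-fold to 3.98-fold, and per kb by 2.76. BAD exceeded BCL2L1 by 3.13 ± 0.24, or 8.77-fold, with an interval of 6.38-fold to 12.97-fold, and per kb by 4.36. Both held in 3 of 3 libraries. This was not so for every BH3-only gene, since BCL2L11 at 17.1 CPM lay below MCL1 at 37.7 CPM, and BBC3 at 3.18 CPM lay below both MCL1 and BCL2L1 at 8.60 CPM. RNAs differ in how well they are captured: among 21 spikes with at least 100 counts the log2 of counts per nominal molecule had an SD of 0.74 and a range of 3.63 by a ladder of amounts recalled for this product. Capture of either gene enters a ratio, so every ratio given here, BH3-only over anti-apoptotic genes included, is of counts and may differ from that of RNA molecules.

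**Figure D3:**
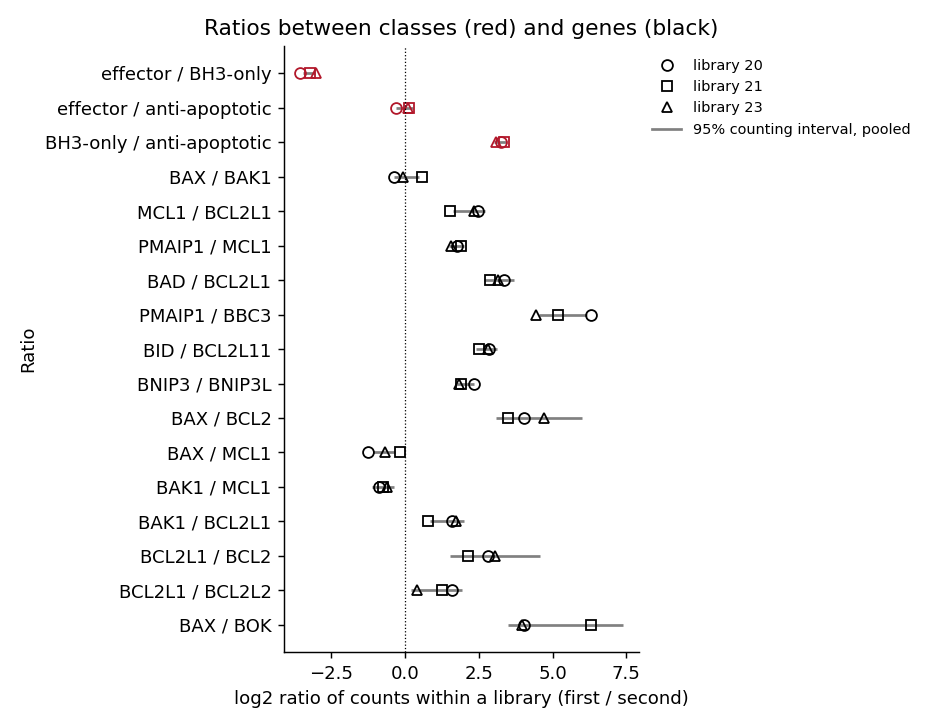
Log2 ratio of counts within each library (symbols), first over second gene or class, with the 95% interval from pooled counts (grey). BH3-only over anti-apoptotic lies between 3.09 and 3.34 in the 3 libraries, while effector over anti-apoptotic and BAX over BAK1 fall on both sides of 0.

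In the order of levels, PMAIP1 was followed by BID, BNIP3, BAD, MCL1, BAX, BAK1, BCL2L11, BCL2L1 and BBC3. Of the 9 neighbouring pairs 7 had library values that did not overlap, and the exceptions were BAX with BAK1 and BAK1 with BCL2L11. Counting intervals of the pooled counts overlapped for 4 of the 9, so the order of PMAIP1 and BID, at 126 and 115 CPM, is not settled by depth. Of all 45 pairs of members 43 had the same order in each library. Per kb BAD stood at the top with 66.3 ± 6.74 CPM per kb, followed by PMAIP1 (64.6 ± 3.49), BID (46.1 ± 1.21), BNIP3 (31.7 ± 2.07), BAX (17.4 ± 4.91), BAK1 (10.1 ± 1.67), MCL1 (9.59 ± 1.04), BCL2L1 (3.30 ± 0.90), BCL2L11 (3.28 ± 0.52) and BBC3 (1.73 ± 1.04). The same 4 BH3-only genes led on both scales. Among all listed genes PMAIP1 ranked 1393rd, BID 1528th, MCL1 3725th, BAX 5114th and BBC3 10689th.

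No member passed the test for a difference between libraries. In a 2-sided exact binomial test per gene and pair of libraries, 0 of 10 members passed Benjamini-Hochberg adjustment over all genes and pairs, and 64 of 11424 genes did (0.560%). The number of genes was 42 without library 20 and 8 without library 23. An unadjusted p under 0.05 in any pair was found for 1 of 10 members, a share not above the 15.9% of all genes. This member was BAX, with 24 counts in library 20 against 39 in library 21 (exact binomial p = 0.023, adjusted p = 0.59). A chi-square test over the 3 libraries likewise called 0 of 10 members, beside 83 of 11424 genes. In that test no member had an unadjusted p under 0.05. The observed coefficient of variation (CV) was above that of counting alone for 3 of 10 members, namely BAX at 28.3% beside 17.1%, BBC3 at 60.3% beside 46.3% and BAD at 10.2% beside 9.51%. The same held for 19 of the 54 other list genes, a like share. BID varied least, at 2.63% beside 7.75%. The common biological CV from edgeR was 0.054 over 8163 genes.

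**Figure D4:**
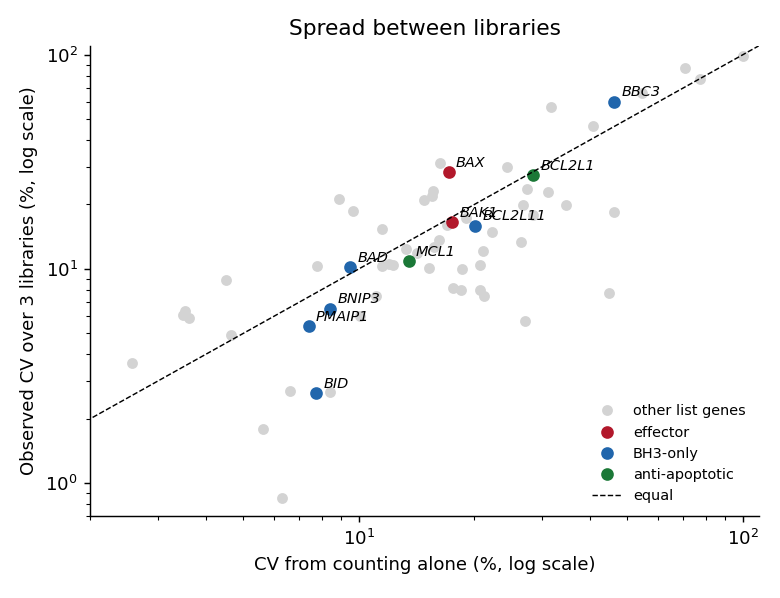
Observed CV over the 3 libraries against the CV that counting alone gives, in percent on log axes, for the members (coloured by class) and the 54 other list genes (grey). BAX, BBC3 and BAD lie above the line of equality, and the other 7 members lie below it.

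The rest of the family ranged widely. Of 16 further BCL2 family genes 12 were listed and 6 averaged at least 10 CPM, beside 44.6% of all listed genes. Among anti-apoptotic genes BCL2L2 had 4.12 ± 1.92 CPM, BCL2, the founding member, had 1, 3 and 1 counts, and BCL2A1 and BCL2L10 were not listed. BCL2L1 exceeded BCL2 with 37 counts beside 5 in all libraries together (2.90-fold to 24.1-fold), and BAX exceeded BCL2 with 102 counts beside 5 (8.46-fold to 64.2-fold). BCL2L1 over BCL2L2 was 1.08 ± 0.61 on the log2 scale. Among BH3-only genes HRK had 7.09 ± 4.03 CPM, BIK 3.46 ± 0.27 CPM and BMF 2.34 ± 1.55 CPM. BNIP3L, the paralog of BNIP3 and likewise a receptor for mitochondrial removal, had 29, 36 and 39 counts, and BNIP3 exceeded it by a log2 ratio of 2.01 ± 0.28, or 4.04-fold (3.27-fold to 5.08-fold). The most abundant relative was BCL2L12, with 236, 211 and 235 counts, or 157 ± 4.20 CPM, followed by BECN1, which carries a BH3 domain and acts in autophagy, at 56.04 ± 4.18 CPM. BNIP1 had 45.3 ± 4.74 CPM, BCL2L13 29.6 ± 2.99 CPM and BNIP2 28.8 ± 6.34 CPM. When relatives with the same role were added, the log2 ratio of BH3-only to anti-apoptotic sums was 3.18 and that of effector to anti-apoptotic sums was -0.16.

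Downstream of the family, cytochrome c was abundant and the apoptosome scaffold was low. CYCS, the cytochrome c released through BAX and BAK pores, had 1044 ± 38.1 CPM. APAF1, which assembles the apoptosome, had 5.77 ± 1.14 CPM, and the initiator caspase gene CASP9 had 9.66 ± 1.92 CPM. Per kb these were 255, 0.82 and 2.16 CPM per kb for CYCS, APAF1 and CASP9. The caspase gene CASP6 had 25.8 ± 8.04 CPM. All 15 genes of this list were listed and 11 averaged at least 10 CPM, among them the nuclease inhibitor gene DFFA (219 ± 3.91 CPM), DIABLO (115 ± 11.9 CPM), AIFM1 (97.7 ± 2.59 CPM) and CASP2 (52.2 ± 5.36 CPM). Of the 7 inhibitors of apoptosis 4 were listed, led by BIRC5, which also acts in mitosis, at 318 ± 15.6 CPM, with BIRC6 at 34.04 ± 4.06, XIAP at 31.4 ± 6.57 and BIRC2 at 27.9 ± 3.52 CPM. The outer membrane channels VDAC1, VDAC2 and VDAC3 had 573 ± 34.9, 553 ± 35.0 and 529.8 ± 31.2 CPM. VDAC2 is known to bind BAK, whose own transcript was at 22.4 CPM.

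**Figure D5:**
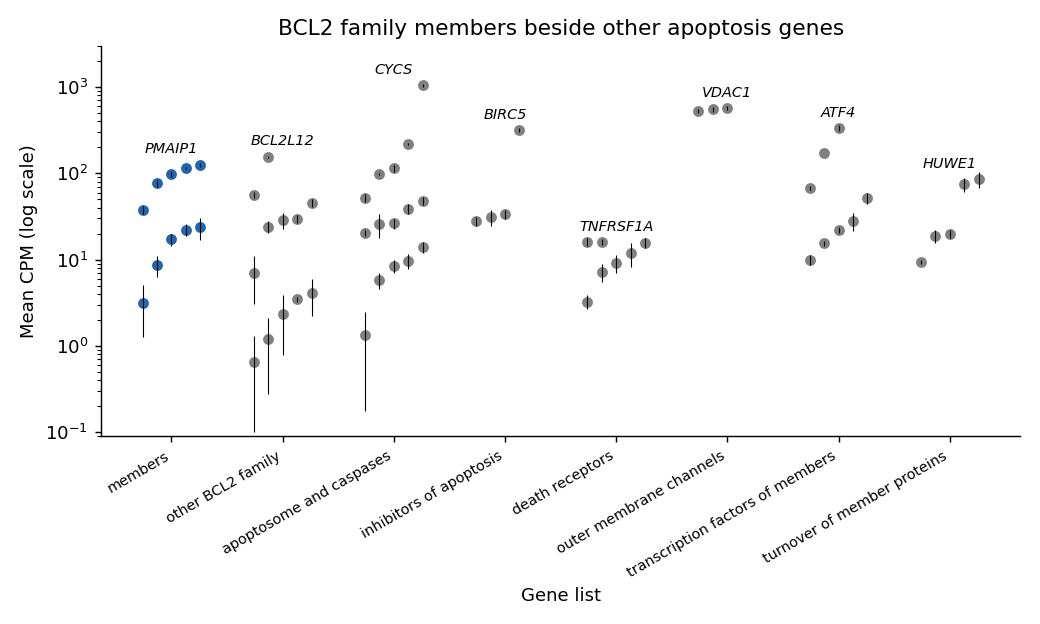
Mean CPM (log axis) with SD over 3 libraries for each listed gene of the 8 lists, members in blue and other lists in grey, with the highest gene of each list named. The members span from 3.18 to 126 CPM. CYCS, the VDAC genes, ATF4, BIRC5, DFFA, MYC and BCL2L12 lie above all of them.

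Upstream of the family, the death receptor list had a median of 10.6 ± 1.297 CPM, in which an unlisted gene counted as 0 CPM. The median of 6.89 CPM over all listed genes holds no unlisted gene, so the 2 medians differ in base. Of the 8 genes of the list 7 were listed and 4 averaged at least 10 CPM, beside 44.6% of all listed genes. Nothing is read from this share. These 4 genes were TNFRSF1A (16.03 ± 1.28 CPM), TNFRSF10B (16.02 ± 1.68 CPM), the adaptor gene FADD (15.7 ± 1.91 CPM) and CFLAR (11.9 ± 3.56 CPM). CASP8, the protease that cleaves BID, had 8.43 ± 1.51 CPM. Of the transcription factors known to act on member genes, ATF4 had 337.5 ± 30.1 CPM, MYC 173 ± 1.47, HIF1A, which induces BNIP3, 52.0 ± 8.01, FOXO3 28.1 ± 6.49 and E2F1 22.3 ± 1.82 CPM. Of genes for the turnover of member proteins, HUWE1, a ubiquitin ligase of MCL1, had 86.6 ± 18.3 CPM, and USP9X, which removes ubiquitin from MCL1, had 74.9 ± 14.0 CPM. BTRC had 19.0 ± 3.29 CPM and the ubiquitin ligase gene MDM2 19.9 ± 1.99 CPM. Of the 61 tested genes of all lists, members included, 0 passed the adjusted test between libraries, beside 0.560% of all tested genes. An unadjusted exact binomial p under 0.05 in any pair was found for 10 of the 61. This share is like the 15.9% of all tested genes.

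The genes with the most similar levels were found by the distance of log2(CPM + 0.5) over the 3 libraries. For PMAIP1 they were ISCU, at 0.034, and VPS26A, at 0.051. For MCL1 the nearest was RAB6A, at 0.041, and for BAX they were TIFA, at 0.11, and PCGF3, at 0.12. These are genes of like abundance in libraries of the same cells.

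Strand and overlap bear on some members, because the use of strand in counting is not given in the sources used here. In GENCODE 29 exons of BAD, with 332 counts in all, overlap those of GPR137 on the opposite strand, with 73 counts. Exons of BAK1, BBC3, BCL2L1, BCL2L11 and MCL1 overlap other annotated genes that are not listed, and no overlap was found for BAX, BID, BNIP3 and PMAIP1. The gene that overlaps MCL1 and a gene that overlaps BBC3 lie on the same strand as the member, so strand alone cannot separate them. The other overlapping genes lie on the opposite strand.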

How the data were processed

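The authors deposited raw counts per gene for 3 HEK293 libraries in 1 table of 17675 rows, 17595 of genes and 80 of spikes, each with at least 1 count. The build was hg19 and the tools were STAR 2.4.0a and cutadapt 1.2.1, per the submitters' processing notes. How tags were assigned to genes and whether identifiers were collapsed is not given in the sources used, so a count may be a read or a molecule. The 3 columns were treated as replicates without numbers.

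Levels, ratios within a library (pseudocount 0.5 per side), exact Poisson and Clopper-Pearson 95% intervals, and the exact binomial test between libraries (at least 10 pooled counts, Benjamini-Hochberg at 0.05 over all genes and pairs) were computed in Python 3.11.15 with scipy 1.17.1. The biological CV came from edgeR 4.0.16 (intercept only, TMM, filterByExpr), and DESeq2 1.42.0 gave an alternative. No groups exist, so no differential test was possible. The pair test was run on simulated Poisson counts with changes in well counted genes only, so genes with few counts, such as BBC3, were not covered. The edgeR fit was run on data simulated with biological CVs above the common value found here, so smaller values were not covered. Nominal spike amounts were recalled from the product's ladder and are not in the files. Members, classes and lists were chosen with earlier results of these data known. Named genes are the members, both genes of each ratio, up to 6 genes per list by CPM among those at 10 CPM or more, and the nearest genes; APAF1, CASP6, CASP8, CASP9 and relatives under 10 CPM were named beyond the rule for their role in the pathway. A few genes named by that rule are left out here.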

Additional observations from a re-analysis of the deposited data

How the results depend on the processing

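The median level of the members was 30.5 to 32.4 CPM under each of 7 alternatives, against 31.7 CPM. The log2 ratio of effectors to BH3-only genes was -1.93 by class medians, -3.78 without the most counted genes and -2.88 without BNIP3, and that of BH3-only to anti-apoptotic genes was 1.91, 5.14 and 2.86, with 4.05 per kb. The ratio of effectors to anti-apoptotic genes reversed to 1.36 without the most counted genes and to 1.07 per kb, and lay between -0.11 and 0.12 when a library was left out. Per kb BAX over MCL1 reversed to 0.82 and BAK1 over MCL1 to 0.07, and BAX over BAK1 moved to 0.75. With a library left out BAX over BAK1 was -0.22 (without library 21) to 0.25 (without library 20). The number of genes that differ between libraries was 250 with spike totals and 8 to 59 when a library was left out, lowest without library 23, and 0 members were called under any of the 8 alternatives. The biological CV was 0.18 with DESeq2, a median over genes rather than a common value, and 0.026 to 0.069 when a library was left out. Causes were not tested, beyond the scale or genes that each alternative changes by construction. Of 140 single gene values 129 kept their sign and stayed within 1 SD. Depth limits BBC3, BCL2 and BOK, with 14, 5 and 3 counts in all. No paired analysis was possible because there is 1 group.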
